A study of Macaca mulatta with 7 samples.

Results

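The G protein-coupled serotonin receptor genes HTR1A, HTR1B, HTR1D, HTR1F, HTR2A, HTR2B, HTR2C, HTR4 and HTR7 were followed in the nuclei of rhesus monkey (Macaca mulatta) spinal cord, above all in lumbar neurons below a complete thoracic injury. They were picked by gene symbol from a fixed list, and all 9 were found among the 28966 genes of the matrices. Single-nucleus RNA-seq counts the RNA of single nuclei as unique molecular identifiers (UMIs), and the study compared intact cord with lumbar cord far below a lesion in which a piece of cord at T9 had been cut out. The 7 libraries were 1 each of cervical, thoracic and lumbar cord without injury at an age of 5 years, and of lumbar cord at 7 and 14 days post injury (dpi; age 7 years), 30 dpi and 6 months post injury (mpi; both age 6 years). All animals of the study were adult females by its methods, and the 3 intact segments came from 1 animal. Injury, time, animal, age and library preparation therefore cannot be told apart, and no injured segment above the lesion is part of these libraries. The range of the 3 intact libraries used below is a spread between segments of 1 animal, not between animals.

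Serotonin reaches the spinal cord in axons that descend from the raphe nuclei of the brainstem, and a complete lesion cuts these axons for all levels below it. The HTR1 receptors couple to Gi/Go proteins and quieten neurons, the HTR2 receptors couple to Gq and raise excitability through phospholipase C, and HTR4 and HTR7 couple to Gs and raise cyclic AMP. HTR2 receptors on motor neurons are known for sustaining persistent inward currents, and the HTR2C receptor for activity without ligand after loss of serotonin.

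Neuron-like nuclei, named from the markers SNAP25, SYT1, RBFOX3, STMN2 and NEFM, numbered 1191 in cervical, 783 in thoracic and 2824 in lumbar cord without injury. There were 1202, 1733, 1269 and 846 of them at 7, 14 and 30 dpi and at 6 mpi. Their median depth ran from 21618 UMIs at 6 mpi to 39274 at 30 dpi, and pairs of libraries shared 12 to 36 cell barcodes. Neuron-like nuclei also held RNA of glia. The 7 glial genes given here, MBP, MOG, SLC1A2, AQP4, CD74, CSF1R and PDGFRA, summed to 490, 491 and 393 CPM (UMIs of a gene per 1000000 UMIs of the class) in the intact libraries and to 349, 351, 419 and 464 CPM in the injured ones. Of them CD74 was at 2.85, 2.52 and 2.98 CPM in intact cord and at 17.3, 15.5, 12.3 and 6.07 CPM after injury. AQP4, the water channel of astrocytes, went the other way, from 8.94, 9.44 and 14.2 CPM to 5.88, 4.85, 5.80 and 5.17 CPM. The part of glial RNA in the results below was not tested beyond the values given. Each group was 1 library, so no test between groups was possible and every interval covers counting error only.

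The HTR2 genes can be set side by side over the second intracellular loop, where the receptor meets its G protein. The windows below are 60 bases of coding strand (RefSeq, Mmul_10) that start with the 3 codons for Asp-Arg-Tyr, printed in capitals. They are shown because HTR2C and HTR2A, the pair most alike here, had very unequal RNA levels in these neurons. HTR2C lies at chrX:111375410-111375469 on the plus strand, HTR2A at chr17:25337313-25337372 and HTR2B at chr12:118537745-118537804, both on the minus strand. Each window falls in 1 coding exon.
HTR2C: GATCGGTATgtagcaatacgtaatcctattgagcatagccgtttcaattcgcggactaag
HTR2A: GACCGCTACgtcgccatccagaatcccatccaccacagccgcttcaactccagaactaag
HTR2B: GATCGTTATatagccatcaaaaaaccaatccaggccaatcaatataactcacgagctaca
HTR2A and HTR2C had 42 of these 60 bases in common (70.0%), HTR2A and HTR2B 37, and HTR2B and HTR2C 34. The Gs-coupled pair was less alike, with 20 of 60 bases shared by HTR4 and HTR7.

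The HTR2C window is also the stretch in which adenosines are edited to inosine, which lowers coupling to Gq. The 3 codons that hold the edited sites are in capitals here.
HTR2C edited codons: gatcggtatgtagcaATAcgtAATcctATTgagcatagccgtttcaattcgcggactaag
UMI counts do not show whether a transcript was edited. The gene of the editing enzyme ADARB1 was at 159, 153 and 147 CPM in neuron-like nuclei of intact cervical, thoracic and lumbar cord. It was at 142, 137, 142 and 133 CPM after injury, below every intact library by less than 1.5-fold.

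**Figure D1:**
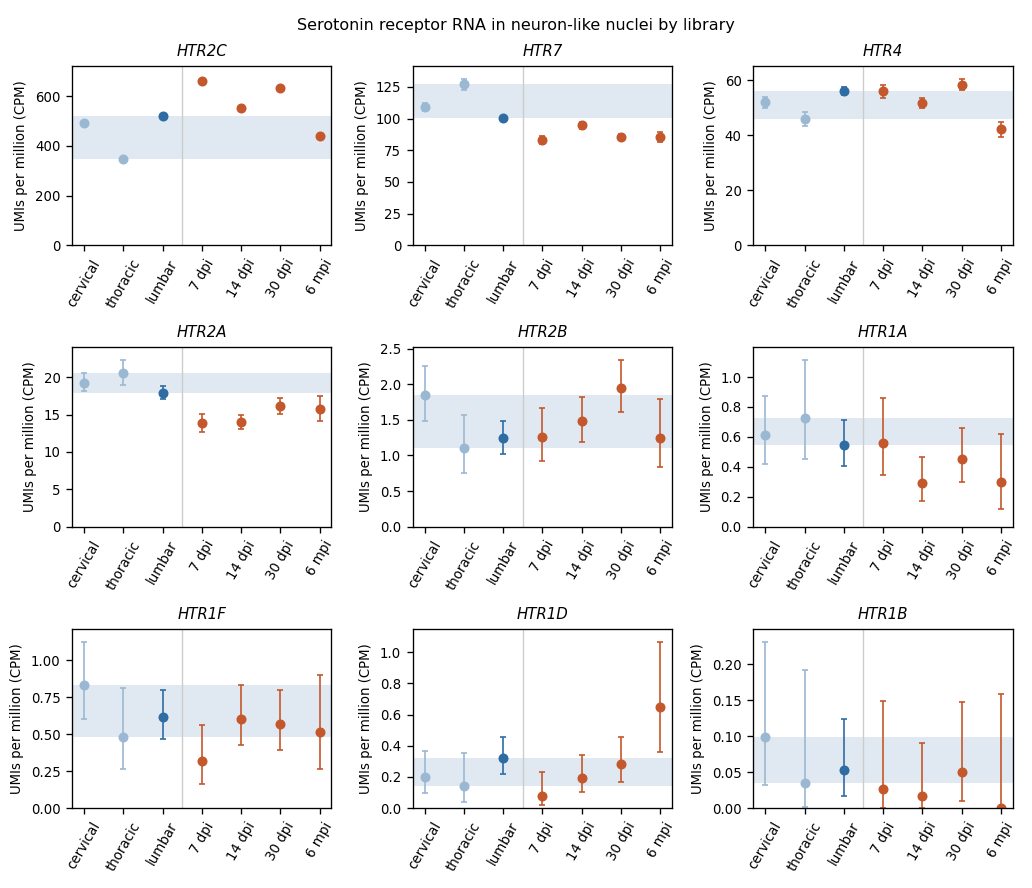
CPM of the 9 receptor genes in neuron-like nuclei, with 1 panel per gene, 1 point per library, exact Poisson 95% intervals as bars and the range of the 3 intact libraries shaded. HTR7 and HTR2A lay below the shaded range in all 4 injured libraries (red), HTR2C above it at 7, 14 and 30 dpi, and the 4 HTR1 genes and HTR2B rested on few UMIs, with wide intervals.

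HTR2C had the highest level of the 9 receptors. In intact lumbar neurons the plain CPM was 521 for HTR2C, 100.2 for HTR7, 56.1 for HTR4, 17.9 for HTR2A and 1.24 for HTR2B. It was 0.619 for HTR1F, 0.545 for HTR1A, 0.320 for HTR1D and 0.0534 for HTR1B. Scaled by gene length the order changed in part. HTR2C gave 3.205 CPM per kb of gene span, followed by HTR7 at 0.865, HTR4 at 0.321, HTR1A at 0.290, HTR2A at 0.274 and HTR2B at 0.0649. HTR1D (0.0122), HTR1B (0.0103) and HTR1F (0.00313 CPM per kb of span) closed the order. The counting intervals of HTR4, HTR1A and HTR2A met in part on this scale, as did those of HTR1B with HTR1D and HTR1F. Whether intronic reads were counted is not given in the sources used here, and per kb of coding length HTR1A (0.431) fell behind HTR2A (12.7), HTR2B (0.858) and HTR1F (0.564), with HTR1D (0.283) and HTR1B (0.0456) last, while HTR2C, HTR7 and HTR4 kept their places at 379, 71.7 and 43.7.

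A gene counted as higher or lower than in intact lumbar cord if it had at least 20 UMIs over both libraries, differed by at least 1.5-fold and lay outside the range of the 3 intact libraries. Of the receptors, 8 reached the UMI minimum, and HTR1B did not. None rose and 2 fell at 7 dpi (HTR1D and HTR1F), against 13.4% of all genes higher and 9.58% lower. At 14 dpi 1 fell (HTR1A), against 10.2% of all genes higher and 9.0% lower. At 30 dpi 1 rose (HTR2B), against 10.0% higher and 8.48% lower. At 6 mpi HTR1D rose and HTR1A fell, against 15.3% higher and 8.63% lower. These counts are near the background, and no receptor passed in the same direction at 3 times. The median log2 ratio of the 8 receptors to intact lumbar cord was -0.14, -0.10, -0.13 and -0.24 at 7, 14 and 30 dpi and 6 mpi, beside 0.05, -0.03, -0.01 and 0.07 over all genes. None of the 8 lay above the intact range in all 4 injured libraries, where 9.32% of all genes did, and 2 lay below it in all 4, where 10.8% of all genes did. These were HTR7 and HTR2A, both by less than 1.5-fold. The places below the range of HTR2A at 30 dpi and 6 mpi and of HTR7 at 14 dpi did not hold in every setting, as given beside their values.

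The 4 HTR1 genes of the list, HTR1A, HTR1B, HTR1D and HTR1F, were scarce, unlike their relative HTR1E, which is described with the other serotonin receptors. HTR1A, the somatodendritic autoreceptor of raphe neurons that is also found on spinal interneurons, gave 31, 21 and 51 UMIs in neuron-like nuclei of intact cervical, thoracic and lumbar cord, or 0.614, 0.726 and 0.545 CPM. After injury it gave 21 UMIs at 7 dpi (0.561 CPM), 18 at 14 dpi (0.294), 27 at 30 dpi (0.453) and 7 at 6 mpi (0.302). The libraries at 14 and 30 dpi and at 6 mpi lay below all intact ones, and that at 7 dpi lay among them. The fall met the rule at 14 dpi, with a log2 ratio of -0.89 (95% interval -1.75 to -0.09), and at 6 mpi, with -0.85 (-2.24 to 0.29). The second interval includes no difference, and the call at 14 dpi was lost with every nucleus given the same weight. The highest level of HTR1A in any sub-cluster of neurons was 5.09 CPM, in a sub-cluster led by RORB and SDK1.

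HTR1D, which with HTR1B is the target of the triptans and sits on nerve endings, gave 10, 4 and 30 UMIs in the 3 intact libraries (0.198, 0.138 and 0.320 CPM). The injured libraries gave 3, 12, 17 and 15 UMIs in order of time (0.0801, 0.196, 0.285 and 0.646 CPM). The lowest and the highest of the 7 libraries were thus both injured ones. The log2 ratio to intact lumbar cord was -2.00 (-4.36 to -0.31) at 7 dpi and 1.01 (0.01 to 1.95) at 6 mpi. At the intact lumbar make-up the 7 dpi value (0.115 CPM) lay above intact thoracic cord (0.100), so the call was lost. The call at 6 mpi was lost with every nucleus given the same weight and with microglia-like CPM subtracted. HTR1D was an inhibitory-neuron transcript for the most part. Nuclei gated on their own UMIs as inhibitory (GAD1, GAD2, SLC6A5, SLC32A1) held 0.421 CPM against 0.0629 in those gated as excitatory (SLC17A6, SLC17A7, SLC17A8), with 72 and 7 UMIs. A sub-cluster led by NXPH2 and GBX1 had the highest level, at 3.40 CPM. In inhibitory nuclei, where 8 receptors were measured, HTR1F fell at 7 dpi, against 12.2% of all genes higher and 9.46% lower. At 14 and 30 dpi HTR1A and HTR1F fell and HTR2B rose there, against 8.59% and 7.72% lower and 9.6% and 9.85% higher. At 6 mpi HTR1D rose, against 16.2% higher and 8.55% lower. These calls of HTR1 genes rested on few UMIs in the injured libraries. HTR1F gave 6, 13 and 12 at 7, 14 and 30 dpi, HTR1A 8 and 13 at 14 and 30 dpi and HTR1D 13 at 6 mpi. HTR2B gave 47 and 62 at 14 and 30 dpi. The counting intervals of all these values but HTR2B at 30 dpi overlapped those of inhibitory nuclei in intact lumbar cord.

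HTR1F, a relative of HTR1D bound by lasmiditan, was at 0.832, 0.484 and 0.619 CPM in intact cervical, thoracic and lumbar neurons (42, 14 and 58 UMIs). After injury it was at 0.321, 0.604, 0.570 and 0.517 CPM (12, 37, 34 and 12 UMIs). Only the 7 dpi library lay below the intact range, with a log2 ratio of -0.95 (-1.98 to -0.04). HTR1F was confined to neurons as far as the depth shows, with 1 UMI in all oligodendrocyte-, OPC-, astrocyte- and microglia-like nuclei together. HTR1B gave 5, 1 and 5 UMIs in the intact and 1, 1, 3 and 0 UMIs in the injured libraries, too few to compare.

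The Gq-coupled receptors ranged from the most abundant of the 9 to a scarce one. HTR2C was at 492, 347.5 and 521 CPM in intact cervical, thoracic and lumbar neurons. It was at 660, 551 and 631 CPM at 7, 14 and 30 dpi and reached 438 CPM at 6 mpi. The first 3 injured libraries lay above the intact range and the last one inside it, and thoracic cord was the lowest of all. Set against intact lumbar cord, the log2 ratios were 0.34, 0.08, 0.28 and -0.25, so none reached 1.5-fold. The make-up of the neurons also differed between libraries. With each library set to the sub-cluster proportions of intact lumbar cord, the ratios were 0.28, 0.25, 0.34 and -0.07. Only sub-clusters with at least 10 nuclei in a library were used, 30, 31, 32 and 29 in order of time and 37 in intact lumbar cord. Sub-clusters 32, 36 and 37, which hold most CHAT RNA, were under this minimum in every injured library. The intact lumbar reference of these ratios stood at its plain CPM. Injured and reference values thus cover unlike sets of sub-clusters, and the part of make-up alone was not tested.

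After nuclei were thinned to 5000 UMIs, HTR2C was seen in 35.1%, 26.8% and 38.5% of intact cervical, thoracic and lumbar neurons and in 47.1%, 35.2%, 37.2% and 28.7% of those at 7, 14 and 30 dpi and 6 mpi. Without thinning the shares were 42.3%, 32.6% and 46.5% in intact and 54.3%, 42.9%, 46.5% and 36.6% in injured cord. The share rose above the intact range at 7 dpi alone, with an exact 95% interval of 44.2% to 49.98% against 36.7% to 40.4% in intact lumbar cord. At 14 and 30 dpi the share was not above that of intact lumbar cord while the CPM was, so no order is read from those shares. The background in oligodendrocyte-like nuclei, which should lack the receptor, was 0.661% in intact lumbar cord and 0.581% at 7 dpi at 1000 UMIs, where neurons had 23.7% and 29.5%.

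HTR2C was higher in inhibitory than in excitatory neurons. Nuclei gated as inhibitory held 733 CPM over all libraries, those gated as cholinergic (CHAT, SLC5A7, SLC18A3) 537 and those gated as excitatory 350. Over the 35 sub-clusters of at least 50 nuclei, with 3 led by glial genes among them, the level ran from 1.54 to 2262 CPM. It was over 100 CPM in 19 of them and under 10 in 8. The top sub-cluster, led by COL4A4 and ESR1 (the estrogen receptor), reached 2001 CPM in intact lumbar neurons and 2484, 2112.5 and 2881 CPM at 7, 14 and 30 dpi, with 21 to 88 nuclei in each. All 3 libraries of the first month lay above intact lumbar cord in this sub-cluster, but the sub-clusters were divided. Among those with at least 20 nuclei in both libraries, HTR2C was higher than in intact lumbar cord in 11 of 20, 13 of 22, 13 of 21 and 6 of 15, in order of time. By 1.5-fold or more it was higher in 8, 5, 4 and 1 of them and lower in 4, 4, 5 and 4.

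In excitatory nuclei HTR2C was at 333, 112 and 317 CPM in the intact libraries and at 489, 388, 447 and 235 CPM after injury. The rise at 7 dpi met the rule (log2 ratio 0.63), where 13.0% of all genes were higher and 9.53% lower. It was the only call among the 5 receptors measured there at 7 dpi and at 6 mpi and the 6 measured at 14 and 30 dpi. At the later times 7.62%, 8.06% and 12% of all genes in this gate were higher and 9.12%, 8.23% and 9.87% lower. In inhibitory nuclei HTR2C was at 681, 568 and 698 CPM in intact and at 887, 728, 838 and 657 CPM in injured cord, with no call. The order of the injured libraries was the same in both gates, with 7 dpi first and 6 mpi last.

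HTR2A, the receptor for which ketanserin is a classical antagonist, was at 19.3, 20.5 and 17.9 CPM in intact cervical, thoracic and lumbar neurons. It was at 13.8, 13.9, 16.1 and 15.8 CPM after injury. All 4 injured libraries lay below all 3 intact ones, with log2 ratios of -0.37, -0.36, -0.15 and -0.18 to intact lumbar cord. At the intact lumbar make-up these became -0.20, -0.24, 0.02 and -0.02, so the last 2 were near 0 over the sub-clusters used. The sub-cluster in which HTR2A was highest, led by NCKAP5, had 5 nuclei at 6 mpi, under the minimum of 10. The injured values thus cover fewer sub-clusters than the intact lumbar reference, and these ratios do not isolate make-up. The share of nuclei with HTR2A after thinning to 5000 UMIs was 8.28%, 9.26% and 7.21% in intact and 6.74%, 6.58%, 7.38% and 7.11% in injured cord, and without thinning 28.7%, 29.5% and 23.9% and 21.0%, 23.3%, 27.4% and 22.5%. These shares overlapped between the groups.

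HTR2A and HTR2C peaked in different sub-clusters. Across the 35 sub-clusters their log2(CPM + 1) levels had a Pearson r of -0.35. The points pool the same 7 libraries and include the 3 sub-clusters led by glial genes. HTR2A was highest at 77.1 CPM in an inhibitory sub-cluster led by NCKAP5 and HRH1 and at 53.0 CPM in an excitatory one led by NMU and TAC3. Gated cholinergic nuclei held 26.7 CPM, excitatory 18.6 and inhibitory 12.9. In inhibitory nuclei HTR2A was at 14.1, 13.1 and 15.3 CPM in the intact libraries and at 11.3, 10.9, 11.9 and 10.5 CPM in the injured ones. It lay below the intact range in all 4, as did 10.0% of all genes in that gate, while 8.89% lay above it in all 4. Excitatory nuclei differed, at 18.1, 23.6 and 18.0 CPM in intact and at 14.1, 16.6, 21.5 and 19.5 CPM in injured cord, with only the 7 and 14 dpi libraries below the range and the later ones above intact lumbar cord. In the NMU-led sub-cluster HTR2A was at 88.7, 79.0 and 50.04 CPM in intact cord and at 31.0, 40.1, 47.0 and 45.8 CPM after injury, from 19 to 77 UMIs in a library.

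HTR2B, best known from heart valves and blood vessels, was at 1.84, 1.11 and 1.24 CPM in intact neurons and at 1.26, 1.48, 1.95 and 1.25 CPM after injury. The 30 dpi library met the rule for a rise, with a log2 ratio of 0.65 (0.27 to 1.04), but lay close to intact cervical cord. The call was lost with the mean of the intact libraries as reference and with every nucleus given the same weight. It was also lost at the intact lumbar make-up and with oligodendrocyte-like CPM subtracted. HTR2B did not behave as a neuron gene in these counts. Over all libraries it stood at 1.48 CPM in neuron-, 1.74 in oligodendrocyte-, 2.22 in OPC-, 1.35 in astrocyte- and 1.23 in microglia-like nuclei. Over the neuron sub-clusters it had no peak, with 2.40 CPM the highest. The gene (chr12:118531938-118551028, minus strand) lies wholly inside the proteasome gene PSMD1 on the opposite strand, and the strand setting of the count is not given in the sources used here. HTR2B was 0.662% to 1.91% of the PSMD1 level in every class, and without the strand of the count the UMIs of both genes cannot be told apart. HTR2B also met the rule in oligodendrocyte-like nuclei at 14 and 30 dpi and in OPC-like nuclei at 30 dpi, where 12.5%, 13.0% and 13.6% of all genes were higher.

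After HTR2C, the Gs-coupled HTR7 and HTR4 were the most abundant of the 9 receptors. Their loop windows are given for comparison with the Gq windows, with the Asp-Arg-Tyr codons again in capitals. Both windows are joined across an exon junction, between the ends chr6:146041948-146069855 for HTR4 and chr9:90973611-91076797 for HTR7, on the minus strand.
HTR4: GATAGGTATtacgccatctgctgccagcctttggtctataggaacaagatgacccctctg
HTR7: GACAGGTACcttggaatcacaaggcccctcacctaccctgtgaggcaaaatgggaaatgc

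HTR7, a receptor of the locomotor circuits of the lumbar cord, was at 109, 127 and 100.2 CPM in intact cervical, thoracic and lumbar neurons. It was at 82.9, 94.5, 85.1 and 85.6 CPM in the injured libraries, in order of time. All 4 injured libraries lay below all 3 intact ones, by log2 ratios of -0.27, -0.08, -0.24 and -0.23 to intact lumbar cord. At the intact lumbar make-up, over the sub-clusters used, the ratios were -0.25, -0.11, -0.25 and -0.22, almost the same. After thinning to 5000 UMIs, HTR7 was seen in 31.7%, 33.1% and 28.2% of intact neurons and in 25.4%, 30.1%, 25.4% and 26.3% of those after injury, and without thinning in 60.1%, 58.4% and 55.6% and in 53.8%, 57.8%, 60.8% and 51.5%. The thinned share at 14 dpi lay inside the intact range and the other 3 lay below it. With every nucleus given the same weight, the 14 dpi ratio turned to 0.08 and the other 3 stayed at -0.29, -0.17 and -0.16.

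**Figure D2:**
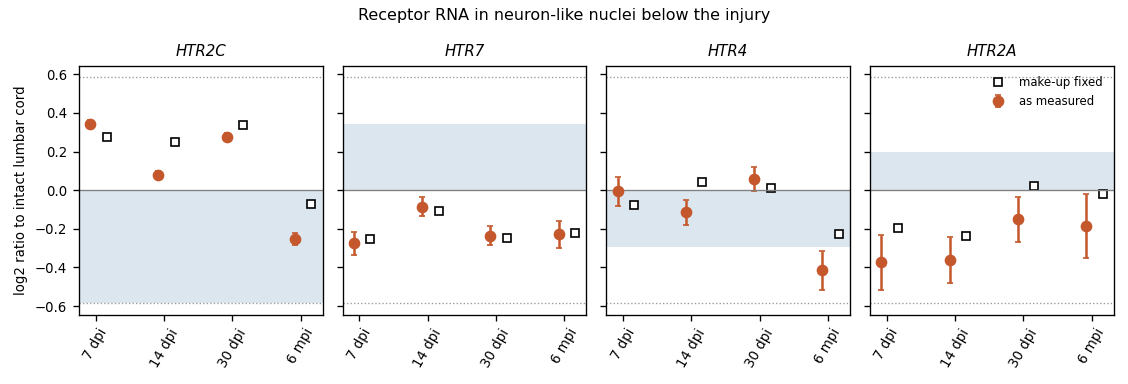
log2 ratio of CPM in neuron-like nuclei to intact lumbar cord for HTR2C, HTR7, HTR4 and HTR2A at the 4 times after injury, with exact 95% counting intervals as bars, the range of the 3 intact libraries shaded and 1.5-fold dotted. Filled points are as measured. Open squares have the sub-cluster proportions of intact lumbar cord over sub-clusters with at least 10 nuclei in a library. By the squares HTR2A was at 0.02 and -0.02 at 30 dpi and 6 mpi and HTR7 between -0.25 and -0.11. The squares cover fewer sub-clusters than the intact lumbar reference and do not isolate make-up.

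By transmitter, HTR7 stood at 109 CPM in cholinergic, 104 in inhibitory and 83.5 in excitatory nuclei over all libraries. In excitatory nuclei it was at 94.8, 119 and 85.1 CPM in the intact libraries and at 66.6, 75.4, 78.8 and 67.3 CPM in the injured ones. It lay below the intact range at all 4 times, as did 10.6% of all genes in that gate, while 7.54% lay above it at all 4. In inhibitory nuclei it was at 116, 125 and 107 CPM in intact and at 88.3, 110, 88.0 and 96.4 CPM in injured cord, where the 14 dpi library fell inside the range.

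The gap was widest in cholinergic nuclei, which include motor neurons. HTR7 was at 136, 172 and 124 CPM in the intact and at 94.0, 73.9, 82.4 and 67.8 CPM in the injured libraries, over 55, 26 and 84 and then 44, 60, 43 and 22 nuclei. All injured values lay below all intact ones, with log2 ratios of -0.40, -0.74, -0.59 and -0.87 to intact lumbar cord, while 6.33% of all genes in that gate lay below the range at all 4 times and 5.8% above it. HTR7 met the rule for a fall at 14 and 30 dpi and at 6 mpi, also when the nucleus with the most HTR7 UMIs was left out of every library (log2 ratios -0.75, -0.68 and -0.95). Of 4 receptors measured in this gate, none was called at 7 dpi, against 11.4% of all genes higher and 9.36% lower. At 14 dpi HTR4 rose and HTR2A and HTR7 fell, against 7.1% higher and 10.5% lower, and at 30 dpi the same 3 receptors did so, against 10.2% and 11.1%. At 6 mpi HTR7 alone fell, against 18.4% of all genes higher and 11.7% lower.

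The cells behind this gate differed between libraries. Sub-clusters 32, 36 and 37, which hold most CHAT RNA, gave 58.8%, 68.3% and 57.8% of the UMIs of the gate in intact cord and 59.7%, 49.0%, 35.2% and 67.6% after injury. Inside them HTR7 was at 160, 200.05 and 121 CPM in the intact libraries and at 112, 69.1, 24.4 and 67.9 CPM in the injured ones. The 7 dpi value was close to intact lumbar cord, with counting intervals that overlap, and the later 3 lay well below. They rest on 14, 8 and 8 nuclei. The set also changed in make-up, since sub-cluster 37 gave 3, 8 and 10 of its nuclei in intact cord and 8 at 7 dpi but 1, 1 and 0 later. In sub-clusters 32 and 36 alone HTR7 was at 167, 205 and 139 CPM in the intact and at 122, 64.2, 24.9 and 67.9 CPM in the injured libraries. The intervals at 7 dpi and in intact lumbar cord again overlapped. The mix of this pair changed as well, with 12, 6 and 17 nuclei of sub-cluster 32 and 6, 1 and 8 of 36 in intact cord. After injury 8, 8, 2 and 4 nuclei were of 32 and 5, 5, 5 and 4 of 36, in order of time. In the other nuclei of the gate HTR7 was at 100.4, 92.5 and 124 CPM in intact and at 67.1, 78.5, 114 and 67.5 CPM in injured cord, where the 30 dpi library lay inside the range.

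**Figure D3:**
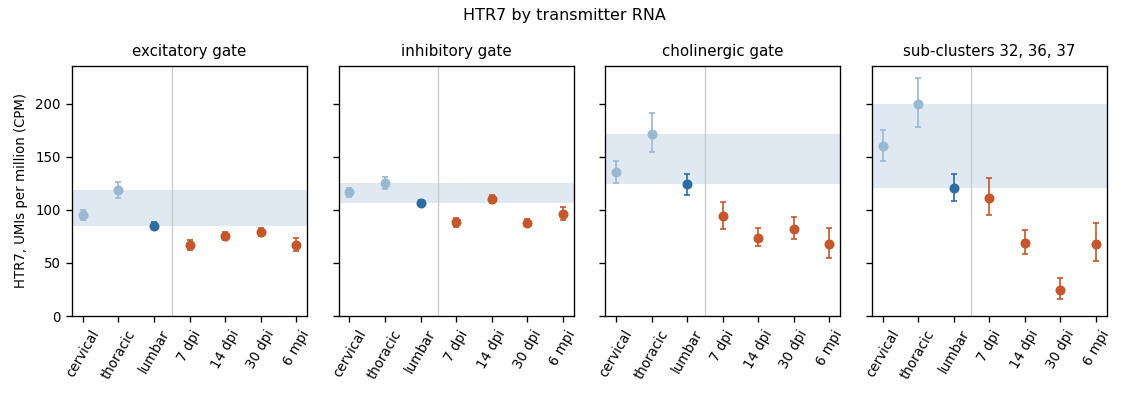
HTR7 level (CPM) in the 7 libraries for nuclei gated as excitatory, inhibitory and cholinergic and for the CHAT-rich sub-clusters 32, 36 and 37, with exact Poisson 95% intervals as bars and the range of the 3 intact libraries shaded. Injured libraries (red) lay below the range in every panel except inhibitory nuclei at 14 dpi, and the lowest point, 24.4 at 30 dpi, rests on 8 nuclei.

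HTR2A fell with HTR7 in the cholinergic gate at 14 and 30 dpi, though the call at 14 dpi was lost without the nucleus richest in HTR2A of each library (log2 ratio -0.62 with and -0.52 without). It was at 34.3, 26.9 and 33.2 CPM in the intact libraries and at 27.5, 21.7, 10.9 and 25.6 CPM in the injured ones. In sub-clusters 32, 36 and 37 it was at 31.9, 28.9 and 41.4 CPM and then at 32.2, 25.4, 13.2 and 33.4 CPM, so only the 14 and 30 dpi libraries lay below the intact range there. The HTR4 rise in the gate, from 17.8, 16.2 and 17.7 CPM to 24.2, 33.6, 52.0 and 24.1 CPM, lay outside these sub-clusters. Single nuclei weighed on it, with 49 of 157 UMIs from 1 nucleus at 30 dpi and 18 of 32 at 6 mpi. Without the richest nucleus of each library HTR4 was at 13.4, 11.4 and 14.8 CPM in intact and at 21.0, 27.0, 36.9 and 10.9 CPM in injured cord, so the calls at 14 and 30 dpi held and the 6 mpi library fell below the intact range. Inside sub-clusters 32, 36 and 37 HTR4 had 0 to 11 UMIs in each library, and in the rest of the gate it was at 42.1, 33.9 and 39.0 CPM in intact and at 48.8, 61.4, 80.3 and 74.5 CPM in injured cord. HTR2C in the gate was at 553, 377 and 517 CPM in intact and at 493, 652, 477 and 629 CPM in injured cord, with no call.

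The sub-clusters richest in HTR7 were of both kinds. The highest, at 411 CPM, was an inhibitory one led by ATP8B4 and RORB, and the second, at 389 CPM, an excitatory one led by ACVR1C. In the ACVR1C-led sub-cluster HTR7 was at 454, 448 and 464 CPM in the intact libraries and at 289, 283 and 368 CPM at 14 and 30 dpi and 6 mpi, below all intact values. The 7 dpi library had 17 nuclei there, under the 20 asked for, and is not given. In the ATP8B4-led one HTR7 was at 393 CPM in intact thoracic and 506 CPM in intact lumbar cord, while intact cervical cord had 19 nuclei, also too few. After injury it was at 407, 410, 355 and 322 CPM, all below intact lumbar cord, but those at 7 and 14 dpi lay above intact thoracic cord. Among sub-clusters with at least 20 nuclei in both libraries, HTR7 was lower than in intact lumbar cord in 15 of 24, 16 of 27, 14 of 26 and 17 of 21, in order of time. By 1.5-fold or more it was lower in 7, 6, 6 and 5 of them and higher in 2, 4, 3 and 2. By the same count HTR4 was lower in 10 of 19, 14 of 23, 11 of 20 and 9 of 15. HTR2A was lower in 11 of 20, 16 of 23, 12 of 22 and 10 of 18.

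HTR4, which in the brainstem drives breathing and in the gut motility, was at 52.0, 45.8 and 56.1 CPM in intact cervical, thoracic and lumbar neurons and at 55.9, 51.8, 58.4 and 42.1 CPM after injury. The 7 and 14 dpi libraries lay inside the intact range, 30 dpi just above it and 6 mpi below it. Set against intact lumbar cord, the log2 ratios were -0.01, -0.12, 0.06 and -0.41. After thinning to 5000 UMIs HTR4 was seen in 14.6%, 12.4% and 16.3% of intact and in 17.4%, 15.7%, 16.7% and 14.0% of injured neurons. Without thinning the shares were 34.6%, 30.5% and 36.7% and then 39.5%, 35.5%, 41.6% and 30.5%. In inhibitory nuclei the 6 mpi library stood at 47.2 CPM, below the intact range there.

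**Figure D4:**
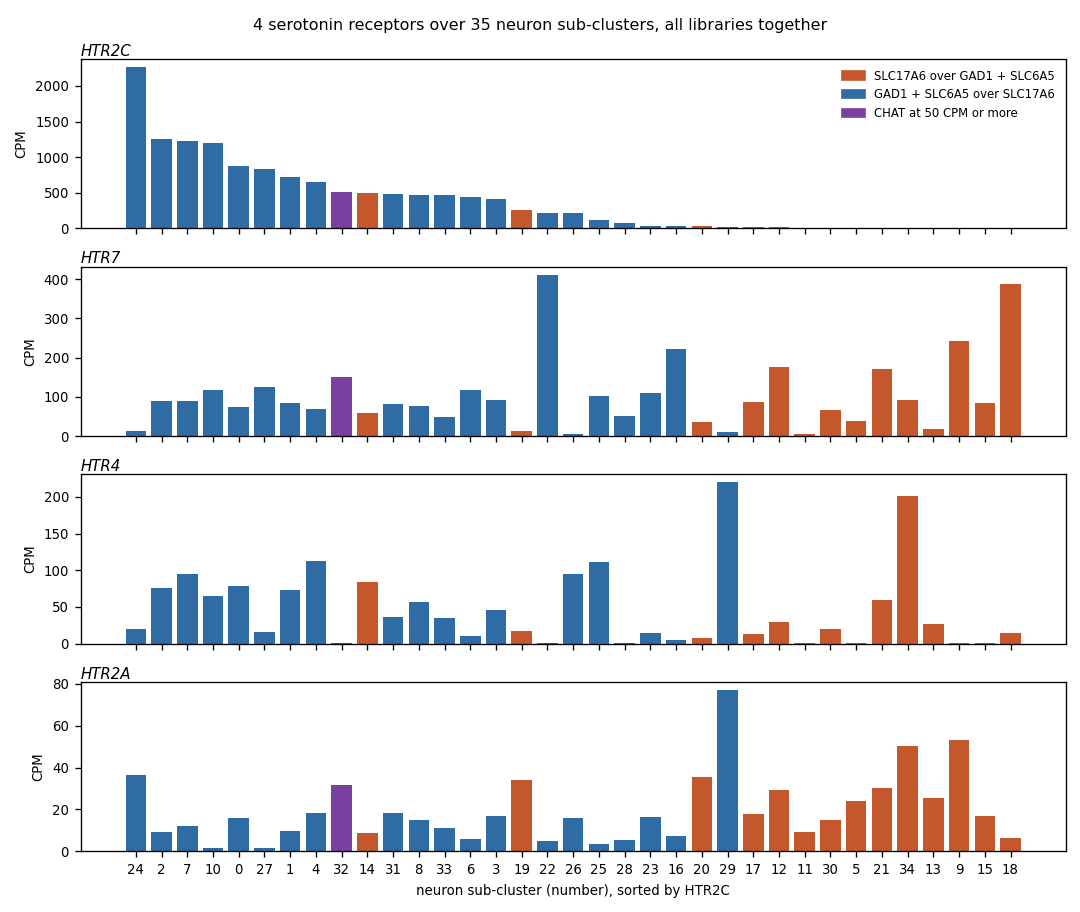
HTR2C, HTR7, HTR4 and HTR2A (CPM, 1 panel each) in the 35 neuron sub-clusters of at least 50 nuclei, all libraries pooled, sorted by HTR2C and coloured by transmitter RNA. HTR2C was high in sub-clusters where GAD1 and SLC6A5 exceed SLC17A6, and the tallest bars of the other 3 receptors fell in other sub-clusters than those of HTR2C.

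HTR4 peaked at 220 CPM in the inhibitory sub-cluster led by NCKAP5 and HRH1, where HTR2A peaked too, and reached 201 CPM in an excitatory one led by SKOR2. The CHAT-rich sub-cluster led by SPNS3 was the lowest at 0.368 CPM. HTR4 and HTR2C tended to share nuclei. At 10000 UMIs HTR4 was seen in 34.5%, 29.2% and 36.1% of intact cervical, thoracic and lumbar nuclei with HTR2C and in 16.2%, 18.9% and 18.6% of those without. After injury the shares were 37.3%, 35.9%, 41.0% and 40.2% with HTR2C and 14.3%, 15.2%, 16.3% and 13.4% without. The reverse held for HTR2A in all 7 libraries. It was seen in 10.4%, 10.3% and 10.2% of intact nuclei with HTR2C and in 15.5%, 18.7% and 15.1% of those without, and after injury in 9.33%, 7.85%, 8.90% and 11.1% with and in 11.8%, 13.9%, 13.6% and 14.0% without. At this depth 21.4% of intact lumbar neurons had none of the 9 receptors, 40.9% had 1 and 27.8% had 2.

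The genes most like each receptor over the 35 sub-clusters, by Pearson r of log2(CPM + 1) among 13547 genes, were CREM (0.81), QPRT (0.80) and TFCP2 (0.79) for HTR2C. For HTR4 they were FAM98C (0.79), RAPGEF3 (0.76) and ANKRD17 (0.73). For HTR7 they were PEAK1 (0.66), NOX4 (0.66) and OVOL3 (0.62), and for HTR2A MAD1L1 (0.65), C19H19orf12 (0.64) and GPRIN3 (0.64). For HTR1F they were POU1F1 (0.55), FICD (0.55) and SLC39A10 (0.54), and for HTR2B MAP2K2 (0.63), ARHGAP10 (0.61) and LYRM4 (0.58). The points of these correlations share libraries and differ in depth, and 3 of them are sub-clusters led by glial genes (851 nuclei).

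Outside neurons, receptor RNA was low and differed by receptor. HTR2A was an exception with a level of its own in OPC-like nuclei (OPC, oligodendrocyte precursor cell), at 4.30, 5.11 and 6.46 CPM in the intact and 3.88, 7.05, 5.64 and 5.46 CPM in the injured libraries. In astrocyte-like nuclei it was at 5.31, 5.00 and 2.96 CPM in intact cord and at 1.26, 2.89, 1.39 and 1.76 CPM after injury, but the injured values come from 1 to 5 UMIs each. HTR2A lay mainly in an astrocyte cluster led by SLC14A1, at 9.04, 6.32 and 6.60 CPM in the intact and 0, 5.11, 2.17 and 7.30 CPM in the injured libraries, and in intact cord it was at or under 0.799 CPM in one led by ITPRID1. The first held 482 and the second 468 nuclei in intact lumbar cord, 59 and 39 at 7 dpi, 82 and 161 at 14 dpi, 96 and 48 at 30 dpi and 30 and 80 at 6 mpi. The mix thus moved to the ITPRID1-led cluster at 14 dpi and 6 mpi and the other way at 7 and 30 dpi. The counting intervals of the injured class values overlap, so they are not ranked, and the part of the mix in them was not tested. In oligodendrocyte-like nuclei it stayed at or under 0.227 CPM and in microglia-like nuclei at or under 0.722 CPM.

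HTR4 was the receptor with the widest change outside neurons. In oligodendrocyte-like nuclei it was at 0.636, 0.991 and 0.394 CPM in intact cervical, thoracic and lumbar cord and at 4.41, 0.129, 1.11 and 4.31 CPM after injury. The rise met the rule at 7 dpi (log2 ratio 3.49), 30 dpi (1.49) and 6 mpi (3.45), against 23.8%, 13.0% and 23.3% of all genes higher in this class. It rested on 97, 30 and 38 UMIs, in 64, 10 and 25 nuclei. At 7 dpi 77 of the UMIs came from 49 of the 2186 nuclei of 1 cluster, and at 30 dpi 20 came from 4 of 47 nuclei of another. HTR2C was at 4.41, 7.31, 2.80 and 6.12 CPM in the injured and at 4.75, 1.59 and 5.16 CPM in the intact oligodendrocyte-like nuclei. The part of stray neuron RNA in the HTR4 values was not tested. Intact and injured libraries filled different clusters of this class, and whether these are the same kind of cell was not tested. In microglia-like nuclei HTR4 was at 1.40, 0.181 and 0.546 CPM in intact and at 3.94, 1.66, 0.915 and 2.17 CPM in injured cord. The rise met the rule at 7 and 14 dpi, where 20.5% and 12.9% of all genes in the class were higher. Intact and injured microglia-like nuclei also lay in different clusters. Most intact ones were in a cluster led by MRC1, and those at 7, 14 and 30 dpi were mostly in clusters led by SLC11A1, SRGN and PMAIP1. Whether these are the same kind of cell was not tested.

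The remaining glial calls rested on few UMIs. In oligodendrocyte-like nuclei, with 3 or 4 receptors measured at each time, HTR7 fell at 7 dpi (0.364 CPM from 8 UMIs, against 0.591 CPM in intact lumbar cord). The share of all genes called lower there was 8.65%, 10.9%, 10.6% and 9.31% in order of time. In OPC-like nuclei, with 2 or 3 receptors measured, HTR2A fell at 7 dpi and HTR2C at 30 dpi (2.42 CPM from 9 UMIs, against 10.4). Beside these calls 20.7%, 10.1%, 13.6% and 21.4% of all genes in the class were higher and 8.23%, 11.8%, 9.63% and 9.91% lower. In microglia-like nuclei, with 1 to 4 receptors measured, HTR2B fell at 7 dpi (0.711 CPM from 11 UMIs, against 1.23). In this class 15.0%, 15.3%, 16.7% and 9.83% of all genes were lower, and 13.6% and 22.5% were higher at 30 dpi and 6 mpi.

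**Figure D5:**
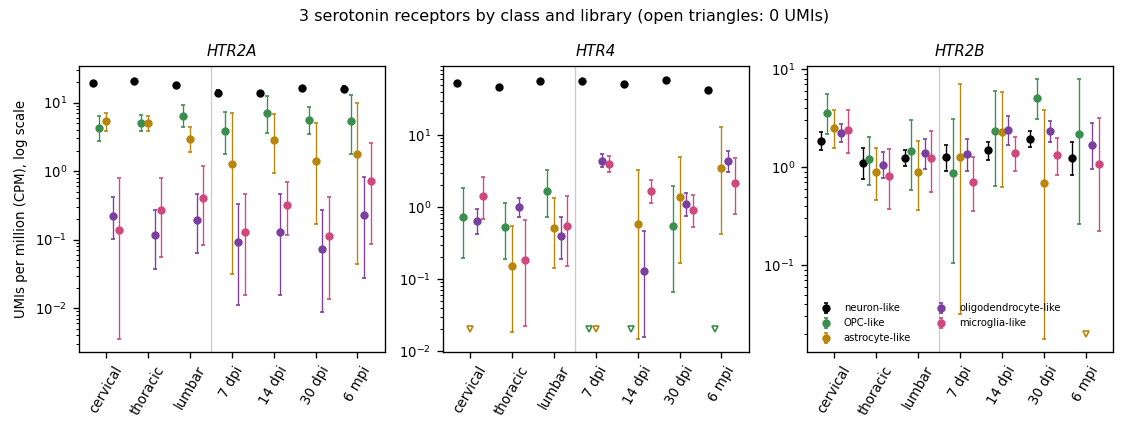
CPM (log scale) of HTR2A, HTR4 and HTR2B by nucleus class and library, with exact Poisson 95% intervals as bars and open triangles for classes with 0 UMIs. HTR2A and HTR4 were highest in neuron-like nuclei in every library, HTR4 rose in oligodendrocyte-like nuclei at 7 dpi and 6 mpi to 4.41 and 4.31, and HTR2B had no peak in neuron-like nuclei.

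HTR1D gave 0 UMIs in intact oligodendrocyte-, OPC-, astrocyte- and microglia-like nuclei. In injured microglia-like nuclei it gave 1, 2, 3 and 2 UMIs in order of time, or 0.0646, 0.107, 0.172 and 0.722 CPM. Pooled over the injured libraries this was 0.147 CPM (0.0634 to 0.290). The 0 UMIs of intact microglia-like nuclei have an upper limit of 0.145 CPM, so the intervals overlap. There were 3 clusters led by GPNMB, a gene of lipid-laden phagocytes, and all were left unnamed. Clusters 13 and 14, nearest to microglia by marker score, held 10 intact nuclei each among 1409 and 1224. Cluster 28, nearest to oligodendrocytes, held 95 among 396 and is not part of the values that follow, with 0, 1 and 2 HTR1D UMIs in its nuclei at 14 and 30 dpi and 6 mpi. In clusters 13 and 14 HTR1D had 1 UMI in 31 nuclei at 7 dpi and 0 UMIs in 354 nuclei at 14 dpi. It was at 0.512 CPM at 30 dpi (4 UMIs in 1004 nuclei) and at 2.96 CPM at 6 mpi (10 UMIs in 1224 nuclei), beside 0.646 CPM in neurons of that library. SLC6A4, the serotonin transporter, was also seen in these cells, with 5.45, 9.85 and 11.0 CPM in clusters 13 and 14 together at 14 and 30 dpi and 6 mpi. In microglia-like nuclei SLC6A4 was at 7.43, 6.60 and 4.64 CPM in intact and at 2.58, 4.54, 3.09 and 4.69 CPM in injured cord, and in neurons at 0.0862 to 0.454 CPM.

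The other serotonin receptors gave a frame for these values. HTR1E, a further Gi/Go-coupled receptor, was at 93.5, 86.1 and 90.6 CPM in intact and 86.2, 95.5, 87.7 and 94.8 CPM in injured neurons, with no call. Of 5 measured, HTR5A fell at 7 and 30 dpi, with log2 ratios of -1.01 and -0.79 (55 and 102 UMIs, 277 in intact lumbar cord). HTR3A, a subunit of the ion channel receptor, fell at 30 dpi and 6 mpi, with -2.95 and -0.85. Beside them 9.58%, 8.48% and 8.63% of all genes were lower at 7 and 30 dpi and 6 mpi. In oligodendrocyte-like nuclei HTR5A was at 0.905, 1.27 and 0.748 CPM in intact and 0.318, 1.75, 0.664 and 1.25 CPM in injured cord. HTR3A had a median of 0 CPM over sub-clusters and peaked at 10.1 CPM in 1 with 57 intact lumbar nuclei. That sub-cluster held 28, 31, 19 and 9 nuclei after injury, in order of time. The part of make-up in the HTR3A falls was not tested. HTR3B rose at 30 dpi (0.89), and HTR6 was not called. HTR3C, HTR3D and HTR3E were below the UMI minimum. TPH2, which makes serotonin in raphe neurons, was at 0.603 to 1.00 CPM in all libraries with no call, and DDC, the decarboxylase, fell at 30 dpi and 6 mpi (-0.76 and -0.64).

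Downstream of the receptors, of 12 measured genes of the Gi/Go arm, such as GNAO1 and KCNJ3, 2 fell at 7 dpi and 2 at 30 dpi, beside the 9.58% and 8.48% of all genes given above, and none rose. Without a fold limit 9, 8, 9 and 7 of the 12 lay below the intact range, where 34.0%, 38.2%, 36.4% and 31.8% of all genes did. The same count was 8, 13, 12 and 8 of 19 for the Gs arm, 6, 4, 9 and 7 of 17 for the Gq arm, 7, 8, 8 and 5 of 13 for receptor partners, arrestins and RNA editing, and 5, 6, 8 and 8 of 10 for genes of serotonin synthesis, packaging, uptake and breakdown. Above the range lay 2, 2, 1 and 2 genes of the Gi/Go arm and 9, 2, 4 and 7 of the Gs arm. For the Gq arm 5, 6, 3 and 4 lay above it, and for receptor partners, arrestins and RNA editing 4, 1, 0 and 3. For the serotonin synthesis list it was 3, 1, 1 and 1. The share of all genes above the range at each time was not counted. The median log2 ratio of the Gi/Go arm was -0.20, -0.14, -0.07 and -0.11 in order of time. Of 19 genes of the Gs arm, such as GNAS and ADCY1, 1 fell at 30 dpi and no other was called. Of 17 genes of the Gq arm, 3, 1, 2 and 2 rose at 7, 14 and 30 dpi and 6 mpi, and 1 fell at 30 dpi, beside 13.4%, 10.2%, 10.0% and 15.3% of all genes higher. The medians of the Gq arm were 0.02, 0.08, -0.06 and 0.09, beside 0.05, -0.03, -0.01 and 0.07 over all genes. PLCB2, a phospholipase C best known from blood cells and taste cells, rose in all 4 injured libraries, from 2.87, 4.43 and 2.93 CPM to 8.87, 7.24, 4.63 and 11.7 CPM. Values of the microglial genes CD74 and CSF1R are given beside it. CD74 was called higher at all 4 times, with its lowest injured level at 6 mpi. CSF1R, at 2.66, 3.42 and 2.19 CPM in intact and 3.10, 5.30, 3.96 and 4.57 CPM in injured neurons, lay inside the intact range at 7 dpi. At Leiden resolution 2 PLCB2 was among the leading genes of a microglia-like cluster with 917 of its 1249 nuclei from 6 mpi. Among the 3 neuron sub-clusters led by glial genes, that led by ARHGAP15 and INPP5D held 15, 19 and 46 nuclei in intact cord. After injury it held 38, 110, 73 and 33 nuclei in order of time. The part of microglial RNA in the PLCB2 value was not tested. ITPR2, a calcium channel of the endoplasmic reticulum, rose at 7 and 30 dpi and 6 mpi, from 109.5, 73.0 and 89.7 CPM to 152, 118, 155 and 141 CPM. GNAQ, the G protein of the HTR2 receptors, was at 492, 500 and 533 CPM in intact and at 503, 534, 525 and 477 CPM in injured neurons, with no call.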

How the data were processed

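Each group was 1 library of nuclei (10x Chromium, v3 chemistry). Cell Ranger 6.0.0 and Mmul_10 were used for alignment, per the file headers and the submitters' processing notes. The authors deposited raw UMI counts, 1 matrix for each library. The annotation release, the counting of introns and the strand setting are not given in the sources used here.

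The 35432 identifiers gave 28966 genes after 959 were named from the reference table. The filter of the study's methods asked for more than 500 genes and 1000 UMIs, less than 10% of UMIs from mitochondrial genes and less than 5% from hemoglobin genes. It kept 67084 of 69332 barcodes, and the 5% of each library with the highest Scrublet scores (scanpy 1.11.5) were removed as doublets. From 2000 variable genes and 30 components, Leiden clusters (resolution 1, 20 neighbours, seed 1, no integration) were named by marker score, and neuron-like nuclei were clustered again without the receptor and pathway genes. Free RNA was not subtracted. The values of 1 gene of the glial list and the values by library of 1 sub-cluster are not reported here.

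For each library and class the UMIs were added up and given as CPM, per 1000000 UMIs of the class, with exact Poisson 95% intervals, and ratios with exact conditional binomial intervals. Intervals cover counting error only. Nuclei of 1 library are not replicates, so no test between groups was made. The call rule of size stated in the results stood in its place, and its share over all genes was the background. The rule was also run on simulated counts, with no outcome given here. A nucleus was gated as cholinergic at 2 or more UMIs of the cholinergic genes, and otherwise as excitatory or inhibitory at 2 or more UMIs and over 3 times those of the other set. Shares used nuclei thinned to 5000 UMIs, with Clopper-Pearson intervals. Gene positions and sequences are from RefSeq (Mmul_10).

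All 9 receptors were named. Of the other lists, up to 2 genes were named per direction that were called in at least 3 injured libraries, plus TPH2, SLC6A4, DDC, ADARB1 and GNAQ. The members, lists and rules were chosen with earlier results of these data known. The views by gate and glial class against all genes, and of sub-clusters 32, 36 and 37, and the gate without the nucleus richest in a gene, were added after values were seen. The versions used were scipy 1.17.1, numpy 2.4.6, leidenalg 0.10.2, pandas 2.3.3 and Python 3.11.15.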

Additional observations from a re-analysis of the deposited data

How the results depend on the processing

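The counts of receptors called in neuron-like nuclei were small and moved with the settings, and no called value changed sign. With the mean of the 3 intact libraries as reference, 0 were higher at 30 dpi. With every nucleus given the same weight, 0 were lower at 14 dpi, 0 higher at 30 dpi, 0 higher at 6 mpi and 2 lower at 6 mpi. With the sub-cluster make-up of intact lumbar cord, 1 was lower at 7 dpi and 0 higher at 30 dpi. With oligodendrocyte-like CPM subtracted, 0 were higher at 30 dpi. With microglia-like CPM subtracted, 1 was higher at 7 dpi, 2 lower at 14 dpi, 1 lower at 30 dpi, 0 higher at 6 mpi and 2 lower at 6 mpi. At a fold of 2, 1 was lower at 7 dpi, 0 lower at 14 dpi, 0 higher at 30 dpi and 0 lower at 6 mpi. At 5 UMIs or more, 2 were lower at 14 dpi and 2 lower at 6 mpi. The cause was not tested beyond the construction of each setting. No count moved without doublet removal, at Leiden resolutions 0.5 and 2, with neurons named nucleus by nucleus, without neuron clusters of low UMI count (there were 0), or without the 3 sub-clusters led by glial genes (851 nuclei), a setting chosen after seeing the data. Over the settings, in order of time after injury, the log2 ratio of HTR7 ran from -0.44 to -0.25, -0.25 to 0.08, -0.40 to -0.17 and -0.39 to -0.16. That of HTR2C ran from 0.28 to 0.54, -0.07 to 0.28, 0.17 to 0.48 and -0.48 to -0.05. That of HTR2A ran from -0.48 to -0.20, -0.46 to -0.21, -0.25 to 0.02 and -0.29 to -0.02. That of HTR2B under microglia-like subtraction, which leaves almost nothing in intact lumbar cord, reached 6.11. Without the nucleus richest in a gene, a setting chosen after seeing the data, the log2 ratio in the cholinergic gate at 6 mpi turned from 0.44 to -0.44 for HTR4 and from 0.28 to -0.17 for HTR2C, neither of them called. Depth limits HTR1A, HTR1B, HTR1D and HTR1F, with 0 to 58 UMIs in a library. No paired analysis was possible because each group has 1 library.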
